A study of Homo sapiens with 12 samples.

Results

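The genes of mitosis and the G2/M transition were followed in MCF10A cells, a line of human breast epithelial cells that does not form tumors, when the Hippo pathway effector YAP was activated and when JUN was overexpressed. The set held 49 of the 23459 gene IDs in the count table. Its members were listed by name as mitotic genes and sorted by role into 10 groups. The rule itself used no value measured in these libraries, but the members were chosen with earlier results of these data known. All 12 libraries came from cells that carried a doxycycline-inducible YAP5SA allele, a form of YAP that the Hippo kinases cannot inactivate. The cells were infected with an expression vector for JUN, a subunit of the transcription factor AP-1, or with an empty vector, and then received doxycycline at 100 ng/ml or its solvent ethanol. The 4 groups are called vector EtOH and vector Dox for the empty vector, and JUN EtOH and JUN Dox for JUN. Each held 3 libraries, which the methods describe as biological replicates. The controls without doxycycline therefore carried the YAP5SA allele too, and the number of clones behind the line is not given in the sources used here.

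Cells enter mitosis when cyclin B and CDK1 become active, after CDC25 phosphatases have removed inhibitory phosphates from CDK1. The kinases PLK1, AURKA and AURKB then drive spindle assembly and chromosome alignment, and the spindle checkpoint holds back the anaphase-promoting complex and its activator CDC20 until every kinetochore is attached. Most of these genes are transcribed late in the cell cycle, from promoters that are repressed in resting cells by the DREAM complex and activated in G2 by MYBL2 and FOXM1 on the MuvB core. MuvB binds DNA through the cell cycle genes homology region (CHR), and NF-Y binds CCAAT boxes nearby. The bulk libraries cannot tell apart a larger share of cells in G2 or mitosis and more mRNA per cell.

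RefSeq promoter windows of 300 bases, from 250 before to 50 after a gene's start on GRCh38.p14, were found for 41 of the 49 members. A CHR element, taken as TTTGAA or TTCGAA on either strand, was present in 30 of the 41 windows (73.2%). The same letters were found in 11.7% of the 11491 windows of genes tested and in 16.6% of all 27305 windows. Restricted to the stretch from 60 bases before to 50 after the start, the shares were 63.4% of the members and 3.5% of the genes tested. CCAAT on either strand was found in 75.6% of the members' windows and 36.5% of those of the genes tested, and both elements in 58.5% and 4.9%. Of the replication genes used below for comparison, 6.1% of 33 windows held a CHR element. A match is a description of the letters in the window and not of binding. Windows are shown for the 3 members with the largest rises on YAP5SA induction in vector cells (KIF18B, KIF23 and CDC20) and for 3 members whose level differed most with JUN in opposite directions (PTTG1 lower, CKAP2L and ASPM higher), in lower case with CHR elements and CCAAT boxes, read on either strand, in capitals. Their positions were chr1:43358731-43359030 on the plus strand for CDC20, chr15:69414099-69414398 on the plus strand for KIF23, chr17:44947724-44948023 on the minus strand for KIF18B, chr2:112764560-112764859 on the minus strand for CKAP2L, chr5:160421605-160421904 on the plus strand for PTTG1 and chr1:197146620-197146919 on the minus strand for ASPM.
CDC20: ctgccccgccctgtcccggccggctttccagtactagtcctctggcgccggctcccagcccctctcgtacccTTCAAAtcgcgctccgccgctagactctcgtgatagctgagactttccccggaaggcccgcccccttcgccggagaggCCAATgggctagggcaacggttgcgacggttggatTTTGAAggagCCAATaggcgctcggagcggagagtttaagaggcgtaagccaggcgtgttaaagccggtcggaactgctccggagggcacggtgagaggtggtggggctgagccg
KIF23: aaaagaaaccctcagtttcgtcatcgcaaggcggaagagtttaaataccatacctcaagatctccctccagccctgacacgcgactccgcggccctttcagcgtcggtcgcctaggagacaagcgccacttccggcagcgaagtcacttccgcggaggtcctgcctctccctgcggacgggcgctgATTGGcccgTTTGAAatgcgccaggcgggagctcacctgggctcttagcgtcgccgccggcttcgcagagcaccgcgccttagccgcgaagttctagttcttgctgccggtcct
KIF18B: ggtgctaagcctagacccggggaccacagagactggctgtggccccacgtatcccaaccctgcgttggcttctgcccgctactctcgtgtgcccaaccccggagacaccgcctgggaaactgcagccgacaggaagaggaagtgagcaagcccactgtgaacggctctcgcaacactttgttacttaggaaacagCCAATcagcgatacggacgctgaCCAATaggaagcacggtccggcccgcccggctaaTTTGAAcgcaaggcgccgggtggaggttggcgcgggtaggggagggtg
CKAP2L: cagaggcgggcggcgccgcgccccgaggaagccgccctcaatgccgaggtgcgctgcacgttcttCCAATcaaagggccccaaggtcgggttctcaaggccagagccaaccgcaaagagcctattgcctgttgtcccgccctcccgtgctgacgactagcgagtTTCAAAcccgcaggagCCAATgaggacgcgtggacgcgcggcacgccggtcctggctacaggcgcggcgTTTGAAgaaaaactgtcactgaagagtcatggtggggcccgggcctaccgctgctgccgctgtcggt
PTTG1: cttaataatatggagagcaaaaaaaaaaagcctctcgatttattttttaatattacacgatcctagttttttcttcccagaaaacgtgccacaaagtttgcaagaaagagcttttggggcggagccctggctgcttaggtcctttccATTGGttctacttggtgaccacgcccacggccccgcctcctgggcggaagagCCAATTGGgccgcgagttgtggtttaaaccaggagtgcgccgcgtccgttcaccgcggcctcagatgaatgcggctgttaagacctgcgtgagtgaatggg
ASPM: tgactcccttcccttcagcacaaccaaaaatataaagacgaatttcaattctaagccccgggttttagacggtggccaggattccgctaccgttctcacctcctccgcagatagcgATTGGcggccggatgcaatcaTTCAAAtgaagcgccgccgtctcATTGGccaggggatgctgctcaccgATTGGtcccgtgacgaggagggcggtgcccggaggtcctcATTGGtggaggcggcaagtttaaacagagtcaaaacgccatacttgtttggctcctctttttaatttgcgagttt
CKAP2L and CDC20 each held 2 CHR elements, KIF23, KIF18B and ASPM 1 each, and PTTG1 held none of these letters but 3 CCAAT matches, of which 2 overlap as CCAATTGG. Whether members with and without a CHR element differed in their response was not tested.

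The libraries held 18594867 to 28993487 counts in all, so a member's count lay between 349 and 24922 and all 49 members passed the filter on low counts. JUN itself averaged 47.6 ± 10.54 CPM (counts scaled to library size; mean ± SD, n = 3) in vector EtOH and 189.7 ± 4.15 in vector Dox. In the JUN groups it averaged 1279 ± 187 CPM with EtOH and 1248 ± 92.3 with Dox. YAP1, whose reads include any from the YAP5SA allele that match the gene, averaged 179.4 ± 10.55, 236.5 ± 31.5, 234.4 ± 20.9 and 279.9 ± 79.3 CPM in the same order and was not called in any of the 4 pairwise comparisons (edgeR adjusted p 0.0755 to 0.308). Of the markers of mammary epithelium, KRT5 averaged 2853 to 4615 CPM over the groups and TP63 5.92 to 27.4. EPCAM averaged 145.9 and 162.8 CPM in vector cells with EtOH and Dox and 43.0 and 42.5 in JUN cells, whereas LAMB3 averaged 1444 and 1125 CPM in vector cells and 3566 and 2868 in JUN cells. ITGB4 averaged 757.9 and 449.2 CPM with EtOH in vector and JUN cells and 295.7 and 231.6 with Dox. KRT14 averaged 66.7 to 481.1 CPM over the groups, KRT17 689.7 to 1704 and CDH1 58.7 to 129.4. Of the blood, vessel and fibroblast markers, CD3E was at 0 in every library and PTPRC and CDH5 averaged at most 0.0649 CPM, whereas CD14 averaged 2.72 to 26.9 CPM, DCN 3.15 to 17.7 and LUM 0.72 to 6.10. LUM and DCN had higher means in both JUN groups than in both vector groups, whereas COL1A1 and PDGFRB did not. COL1A1 was at 3.38, 3.24 and 3.28 CPM in the vector EtOH libraries and 3.96, 3.37 and 2.53 in JUN EtOH. With Dox it was at 1.44, 1.31 and 1.82 CPM in vector cells and 1.30, 1.47 and 1.39 in JUN cells. PDGFRB was at most 0.718 CPM in any library. The part of these marker differences in the results for the mitotic genes was not tested. In several libraries the deviation from the group followed exon length or base composition. In vector Dox replicate 1 the deviation of a gene's log2 CPM had a Spearman correlation of -0.333 with log2 exon length across genes. The library held low values of the long members MKI67, CENPF and ASPM and high values of the short members PTTG1, UBE2C and AURKB. Not every member followed this: the short MYBL2 and CCNA2 were lowest of their group there, and the long MAD2L1 was highest. In vector EtOH replicate 2 the Spearman correlation with exon length was -0.283, and in vector Dox replicate 2 it was 0.313. The Pearson correlation of the deviation with exon GC content was -0.356 in JUN Dox replicate 1 and 0.36 in JUN Dox replicate 3. JUN Dox replicate 1 had the highest values of its group for CDK1, CENPE and ASPM, with exon GC contents of 34.9%, 34.8% and 36.4%, and JUN Dox replicate 3 those for FOXM1, MYBL2 and PLK1, with 53.3%, 60.6% and 57.1%. UBE2C, with 53.5%, was however also highest in JUN Dox replicate 1. Calls that were lost without any of the 12 libraries are given with their values without it.

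YAP5SA induction in vector cells raised 20 of the 49 mitotic genes and lowered none, where 30.1% of all 14775 genes tested were called, 15.6% higher and 14.4% lower (edgeR quasi-likelihood test, adjusted p under 0.05 by the Benjamini-Hochberg method). Without vector Dox replicate 1 the count was 19, where 2128 of 14929 genes tested were higher. In the main fit the median log2 fold change of the members was 0.24, against 0.01 over all genes tested, and 41 members lay above 0. In JUN cells the induction raised 27 members and lowered none, where 21.4% of all genes were called, 11.2% higher and 10.3% lower, with a median log2 fold change of 0.39 and 48 members above 0. Below 0 at an unadjusted p under 0.05 were 0 members in vector cells and 1 in JUN cells, and DESeq2 called 0 and 1 of them lower. JUN overexpression without induction lowered 14 members and raised 2, where 39% of all genes were called, 18.9% lower and 20.1% higher, with a median log2 fold change of -0.12. With induction JUN lowered 9 members and raised 3, where 35.6% of all genes were called, 17.2% lower and 18.4% higher, and the median was 0.01. The share of members that fell with JUN was thus 28.6% without induction and 18.4% with it, the latter close to the 17.2% of all genes. The 9 became 6 without vector Dox replicate 1, 6 without JUN Dox replicate 2, and 2 when only the libraries of that comparison were fitted. Of the genes tested, those fits called 1994 of 14929, 1823 of 14960 and 1471 of 14323 lower. The 2 induction comparisons share no library, whereas each JUN comparison shares 1 group with each of them. The falls of FOXM1, MYBL2, PLK1, KIF2C and SPAG5 with JUN without induction and their rises on induction in JUN cells therefore rest on the same 3 JUN EtOH libraries.

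**Figure D1:**
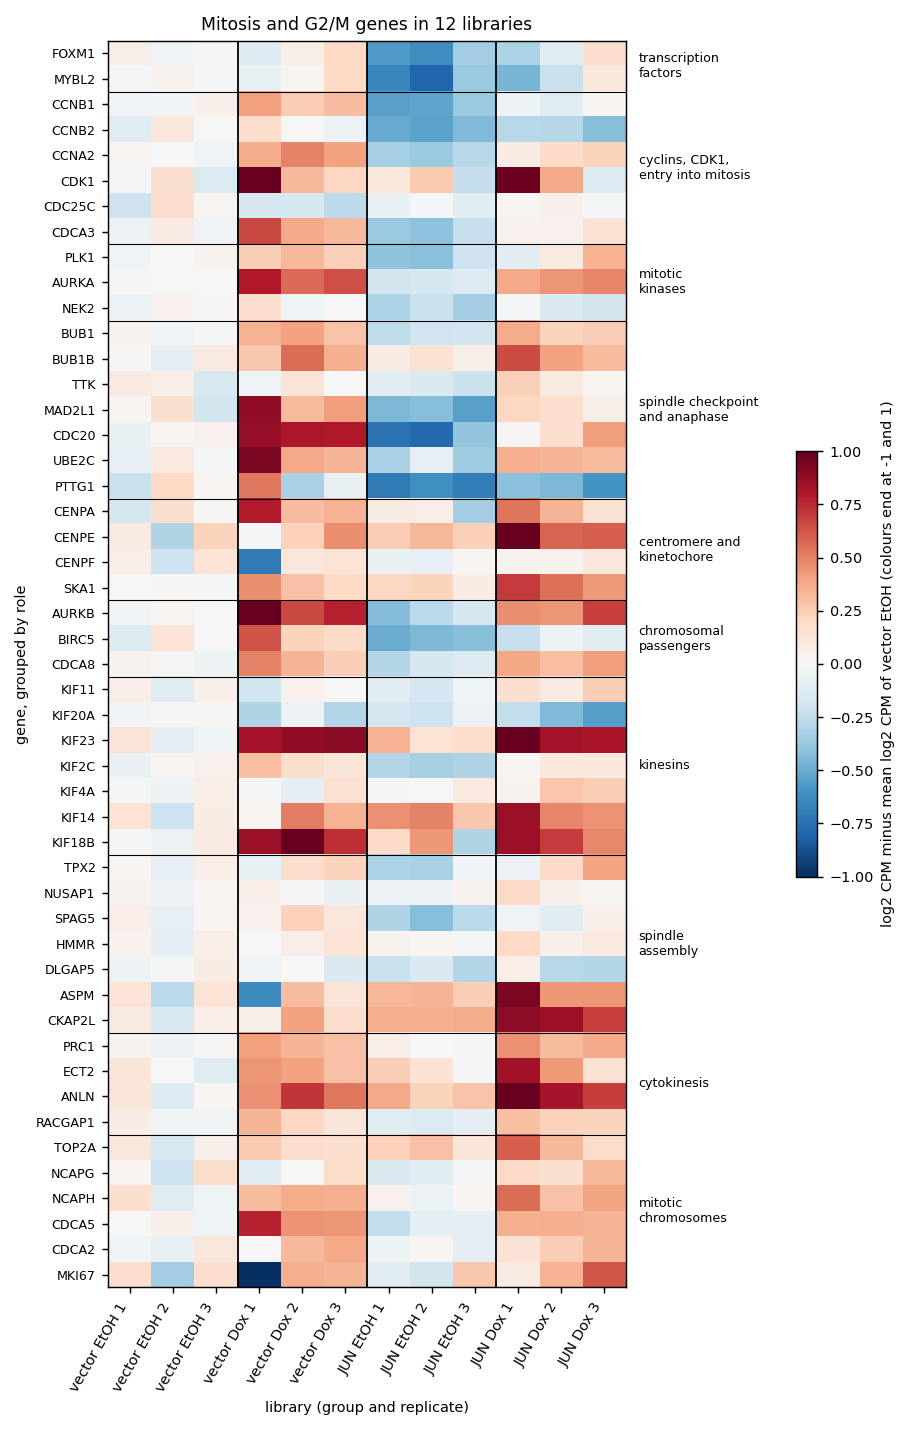
Level of each of the 49 members in each of the 12 libraries, drawn as the log2 difference from the mean of the gene over the vector EtOH libraries, with genes ordered by role and libraries by group. CDC20, KIF23, AURKB and AURKA are above 0 in every vector Dox library, whereas MKI67 and ASPM are low in vector Dox replicate 1 alone of that group.

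Summed over the 49 members, the level was 6268, 5805 and 6313 CPM in the vector EtOH libraries and 6794, 7480 and 7371 with Dox. The JUN libraries had 5559, 5505 and 5853 CPM with EtOH and 7304, 7048 and 7394 in Dox. All Dox libraries lay above all EtOH libraries. The group means were 6129 ± 281 (SD, n = 3), 7215 ± 369, 5639 ± 187 and 7249 ± 179 CPM. Per length of exon, the highest members in vector EtOH were CCNB1 at 99.5 ± 3.28 CPM per kb, CDC20 at 99.4 ± 4.14 and MYBL2 at 97.6 ± 1.88, which did not differ beyond their spread, followed by TPX2 at 76.7 ± 3.85 and CCNA2 at 70.4 ± 1.59. The lowest were CDCA3 at 6.79 ± 0.356, CENPE at 6.14 ± 1.11 and NCAPH at 5.29 ± 0.564 CPM per kb, and CENPE could not be separated from either neighbor by its spread.

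The transcription factors FOXM1 and MYBL2 fell with JUN without induction and rose on induction in JUN cells. Neither was called with JUN under induction or on induction in vector cells. FOXM1 (chr12:2966846-2986340 on GRCh37), the forkhead factor that activates G2/M promoters, was at 223.6, 208.3 and 213.7 CPM in the vector EtOH libraries and 196.7, 224.6 and 246.6 with Dox. In JUN cells FOXM1 was at 144.9, 139.6 and 169.1 CPM with EtOH and 173.0, 198.4 and 243.3 with Dox. Every JUN EtOH library lay below every other library. The log2 fold change with JUN was -0.51 (SE 0.13, edgeR adjusted p = 0.0064) without induction and -0.12 (SE 0.13, edgeR adjusted p = 0.494) with it. On induction the log2 fold change of FOXM1 was 0.05 in vector cells (SE 0.13, edgeR adjusted p = 0.809), and the rise in JUN cells was 0.44 (SE 0.13, edgeR adjusted p = 0.0239). The rise in JUN cells lost its call without JUN EtOH replicate 1 or 2 or JUN Dox replicate 2 or 3, with log2 fold changes of 0.41, 0.39, 0.46 and 0.30. MYBL2 (chr20:42295659-42345135), which encodes B-Myb, the factor that joins MuvB in late S phase, was at 268.6, 277.0 and 267.4 CPM in the vector EtOH libraries and 256.8, 276.3 and 311.8 with Dox. In JUN cells MYBL2 was at 172.0, 156.8 and 209.4 CPM with EtOH and 196.2, 232.6 and 291.2 with Dox. The JUN EtOH libraries lay below both vector groups but overlapped with JUN Dox. MYBL2 fell by 0.60 (SE 0.14, edgeR adjusted p = 0.00449) on the log2 scale with JUN without induction, and its log2 fold change with JUN under induction was -0.23 (SE 0.14, edgeR adjusted p = 0.216). Its rise of 0.42 on induction in JUN cells (edgeR adjusted p = 0.047) was lost when any of 9 libraries was left out, with the largest adjusted p of 0.214 and a log2 fold change of 0.26 without JUN Dox replicate 3.

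Of the 6 genes of mitotic entry, 3 rose on induction in vector cells and 3 in JUN cells, and 4 fell with JUN both without and with induction. CCNB1 (chr5:68462962-68474072), the cyclin that activates CDK1 at mitotic entry, was at 237.0, 238.0 and 251.3 CPM in the vector EtOH libraries and 322.1, 289.2 and 299.8 with Dox. In JUN cells CCNB1 was at 166.4, 167.8 and 187.4 CPM with EtOH and 234.0, 222.2 and 245.7 with Dox. The vector Dox libraries were highest and the JUN EtOH libraries lowest, without overlap, and JUN Dox overlapped with vector EtOH. Induction raised CCNB1 by 0.33 (SE 0.09, edgeR adjusted p = 0.0151) in the vector background and by 0.43 (SE 0.09, edgeR adjusted p = 0.00417) in JUN cells on the log2 scale. The former lost its call without vector EtOH replicate 1 or 2, at log2 fold changes of 0.31 and 0.30. CCNB1 fell with JUN, by 0.48 (SE 0.09, edgeR adjusted p = 0.00111) without induction and by 0.38 (SE 0.09, edgeR adjusted p = 0.00596) with it. CCNA2, the cyclin of S and G2 phase, and CDCA3, which promotes the destruction of WEE1, had the same calls in all 4 comparisons, with log2 fold changes of 0.42 and 0.46 on induction in vector cells. The fall of CCNA2 with JUN under induction (-0.26) was lost without vector EtOH replicate 3, vector Dox replicate 2 or 3, or JUN Dox replicate 1 or 2, at -0.27 to -0.21. For CDCA3 the fall with JUN without induction was lost without vector EtOH replicate 2 or JUN EtOH replicate 1 or 2, at -0.32 to -0.29, and the rise in JUN cells without JUN EtOH replicate 2, at 0.38. CCNB2, the second B-type cyclin, fell with JUN by 0.50 (SE 0.10, edgeR adjusted p = 0.00107) without and by 0.37 (SE 0.10, edgeR adjusted p = 0.00779) with induction, and had log2 fold changes of 0.04 and 0.17 on induction, neither called. CDK1 (chr10:62538089-62554610), the kinase itself, was at 62.1, 70.3 and 57.4 CPM in the vector EtOH libraries and 136.5, 79.1 and 72.8 with Dox. In JUN cells CDK1 was at 68.0, 75.6 and 53.4 CPM with EtOH and 124.2, 82.0 and 57.3 with Dox. Replicate 1 was well above the others in both Dox groups, and no comparison passed the test, with a log2 fold change of 0.60 (SE 0.26, edgeR adjusted p = 0.0894) on induction in vector cells. CDC25C, the phosphatase that activates CDK1, also passed no test and had a log2 fold change of -0.21 and 0.08 on induction. Its reads are uncertain, since its exons overlap with those of FAM53C, which held 1941.7 counts a library on average against 507.8 for CDC25C.

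Among the 3 mitotic kinases, AURKA had the largest rise on induction. AURKA (chr20:54944445-54967393), which matures centrosomes and builds the spindle, was at 114.1, 113.1 and 112.9 CPM in the vector EtOH libraries and 197.8, 167.9 and 176.8 with Dox. In JUN cells AURKA was at 99.55, 100.6 and 103.4 CPM with EtOH and 147.4, 153.6 and 159.2 with Dox. The 4 groups did not overlap. It rose by 0.67 (SE 0.09, edgeR adjusted p = 3.65e-05) on the log2 scale in vector cells and by 0.60 (SE 0.09, edgeR adjusted p = 0.000183) in JUN cells, or 1.59-fold and 1.52-fold. With JUN it fell by 0.24 (edgeR adjusted p = 0.0435) under induction, a call lost when any of 10 libraries was left out, with a log2 fold change of -0.16 without vector Dox replicate 1. PLK1 (chr16:23688977-23701688), the polo kinase of mitotic entry and exit, was at 232.6, 237.6 and 243.7 CPM in the vector EtOH libraries and 282.1, 297.2 and 279.9 with Dox. In JUN cells PLK1 was at 180.4, 178.5 and 205.8 CPM with EtOH and 219.7, 252.9 and 302.9 with Dox. The JUN EtOH libraries were the lowest, and JUN Dox spanned the range of both vector groups. PLK1 rose by 0.46 (SE 0.11, edgeR adjusted p = 0.00972) on induction in JUN cells, with an adjusted p of 0.0518 without JUN EtOH replicate 2. It fell by 0.34 (SE 0.11, edgeR adjusted p = 0.0293) with JUN without induction, a call lost without any single vector EtOH library or without JUN EtOH replicate 1 or 2, at log2 fold changes of -0.35 to -0.30. NEK2, a centrosome kinase, fell by 0.29 with JUN without induction (edgeR adjusted p = 0.0185), and that call was lost without vector EtOH replicate 2 or 3 or JUN EtOH replicate 1 or 3, at -0.28 to -0.27.

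The checkpoint and anaphase genes held 5 members of 7 that rose in each induction comparison, BUB1, BUB1B, MAD2L1, CDC20 and UBE2C, and 3 that fell in each JUN comparison, MAD2L1, CDC20 and PTTG1. CDC20 (chr1:43824652-43828874), the activator of the anaphase-promoting complex that the checkpoint inhibits, was at 190.5, 203.2 and 206.2 CPM in the vector EtOH libraries and 365.8, 349.7 and 348.5 with Dox. In JUN cells CDC20 was at 120.1, 116.9 and 152.3 CPM with EtOH and 201.1, 224.6 and 266.8 with Dox. The vector Dox libraries were the highest and the JUN EtOH libraries the lowest, each without overlap. The log2 fold change on induction was 0.83 (SE 0.12, edgeR adjusted p = 0.00013) in the vector background and 0.83 (SE 0.12, edgeR adjusted p = 0.000225) in JUN cells, or 1.77-fold and 1.78-fold. With JUN it was -0.62 (SE 0.12, edgeR adjusted p = 0.00117) without and -0.62 (SE 0.12, edgeR adjusted p = 0.00128) with induction. CDC20 was the only member called in all 4 pairwise comparisons that kept each call in every alternative fit. PTTG1 (chr5:159848862-159855746), securin, which restrains separase until anaphase, was at 62.4, 83.5 and 73.5 CPM in the vector EtOH libraries and 104.6, 58.0 and 68.9 with Dox. In JUN cells PTTG1 was at 44.6, 47.5 and 45.0 CPM with EtOH and 54.2, 53.0 and 48.1 with Dox. Every JUN library lay below every vector library, and induction left the vector groups overlapping. PTTG1 fell by 0.68 (SE 0.17, edgeR adjusted p = 0.00635) with JUN without induction. With induction its log2 fold change was -0.58 (SE 0.17, edgeR adjusted p = 0.0166), and -0.29 (edgeR adjusted p = 0.082) without vector Dox replicate 1.

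MAD2L1, which forms the checkpoint signal on CDC20, rose by 0.56 and 0.62 on the log2 scale in the 2 induction comparisons and fell with JUN by 0.48 and 0.42. The falls lost their call without vector EtOH replicate 2, at -0.40, and without vector Dox replicate 1, at -0.22, JUN Dox replicate 2, at -0.43, or JUN Dox replicate 3, at -0.37. UBE2C, the ubiquitin-conjugating enzyme of the anaphase-promoting complex, rose by 0.58 and 0.59. The checkpoint kinase gene BUB1 rose by 0.35 and 0.50 and BUB1B, which encodes BubR1, by 0.40 and 0.37. The call for BUB1B in vector cells was lost without vector EtOH replicate 2 or vector Dox replicate 2, at 0.34 and 0.30, and that in JUN cells without any single JUN EtOH library or JUN Dox replicate 1, at 0.27 to 0.40. TTK, the kinase MPS1 that starts checkpoint signaling, passed no test and had log2 fold changes of 0.02 and 0.27 on induction.

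All 3 members of the chromosomal passenger complex, which corrects faulty spindle attachments, rose on induction in vector cells. AURKB (chr17:8108051-8113918), its kinase, was at 36.3, 37.9 and 37.2 CPM in the vector EtOH libraries and 75.3, 58.8 and 63.4 with Dox. In JUN cells AURKB was at 27.51, 30.8 and 32.99 CPM with EtOH and 51.3, 50.4 and 59.6 with Dox. The EtOH libraries of either vector did not reach the lowest Dox library. The log2 fold change was 0.83 (SE 0.11, edgeR adjusted p = 6.04e-05) in the vector background and 0.82 (SE 0.11, edgeR adjusted p = 0.000119) in JUN cells. With JUN the log2 fold changes of AURKB were both -0.29, just short of the threshold (edgeR adjusted p = 0.0566 and 0.0528). CDCA8, which encodes borealin, rose by 0.36 and 0.56. BIRC5, survivin, fell with JUN by 0.46 (SE 0.12, edgeR adjusted p = 0.00738) without and by 0.49 (SE 0.12, edgeR adjusted p = 0.00547) with induction. Its rise of 0.36 on induction in vector cells (edgeR adjusted p = 0.0343) was 0.19 without vector Dox replicate 1, 0.29 without vector EtOH replicate 1 and 0.35 without vector EtOH replicate 3, and uncalled in each case.

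At the centromere and kinetochore 2 of 4 members rose in each induction comparison. SKA1, which couples kinetochores to microtubules, rose by 0.32 (edgeR adjusted p = 0.0277) in the vector background and by 0.39 (edgeR adjusted p = 0.0124) in JUN cells on the log2 scale. The former lost its call without any single vector EtOH library or vector Dox replicate 1, at 0.24 to 0.32, and the latter without JUN EtOH replicate 3, at 0.35. CENPA, the histone variant of centromeres, rose by 0.50 in vector cells (edgeR adjusted p = 0.0271), and by 0.32, uncalled, without vector Dox replicate 1. That call was also lost without vector EtOH replicate 1 or 3, at 0.41 and 0.49. CENPA shares exon bases with SLC35F6, which held 1596.9 counts a library on average against its own 556.3, so its value is uncertain. CENPE, the kinesin that moves chromosomes to the metaphase plate, rose by 0.49 on induction in JUN cells (edgeR adjusted p = 0.0351) and was higher by 0.52 with JUN under induction (edgeR adjusted p = 0.0175). Without JUN Dox replicate 1, the library in which it was highest at 125.4 CPM, these values were 0.32 and 0.36 and neither was called. The first was also lost without any single JUN EtOH library, at 0.47 to 0.52, and the second without vector Dox replicate 1, at 0.42. CENPF, a large outer kinetochore protein, was at 472.5, 391.1 and 494.3 CPM in vector EtOH and 276.1, 486.9 and 494.7 in vector Dox, and passed no test.

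The 7 kinesins, motor proteins of the spindle, held the 2 largest rises in vector cells and the single gene below 0 in both induction comparisons. KIF23 (chr15:69706585-69740766), the motor of the central spindle, was at 67.6, 57.8 and 59.99 CPM in the vector EtOH libraries and 109.4, 113.8 and 115.3 with Dox. In JUN cells KIF23 was at 78.6, 67.8 and 70.0 CPM with EtOH and 128.4, 109.9 and 108.5 with Dox. Every Dox library lay above every EtOH library. The log2 fold change was 0.87 (SE 0.10, edgeR adjusted p = 1.25e-05) in the vector background and 0.68 (SE 0.10, edgeR adjusted p = 0.000204) in JUN cells, or 1.82-fold and 1.60-fold. KIF18B (chr17:43002077-43025141), which shortens astral microtubules, was at 32.3, 31.3 and 34.6 CPM in the vector EtOH libraries and 59.6, 66.6 and 54.6 with Dox. In JUN cells KIF18B was at 37.4, 44.1 and 26.6 CPM with EtOH and 59.1, 53.0 and 45.7 with Dox. The vector groups were far apart, and the lowest JUN Dox library lay just above the highest JUN EtOH library. The log2 fold change of KIF18B was 0.88 (SE 0.15, edgeR adjusted p = 0.000549) in the vector background and 0.54 (SE 0.15, edgeR adjusted p = 0.0199) in JUN cells, the latter uncalled without JUN EtOH replicate 3, at 0.37, JUN Dox replicate 1, at 0.45, or JUN Dox replicate 2, at 0.54.

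KIF2C, a microtubule depolymerase at centromeres, fell by 0.31 with JUN without induction (edgeR adjusted p = 0.00974) and rose by 0.39 on induction in JUN cells (edgeR adjusted p = 0.00407). KIF14, a motor of cytokinesis, rose by 0.40 with JUN without induction (edgeR adjusted p = 0.0366), a call lost without vector EtOH replicate 2 or 3 or JUN EtOH replicate 1 or 2, at 0.30 to 0.44. KIF11, which pushes spindle poles apart, and KIF4A, a chromosome-bound motor, passed no test and had log2 fold changes of -0.05 and 0.01 on induction in vector cells. KIF20A, a motor of cytokinesis chosen here after its values were seen, was at 123.5, 127.2 and 126.9 CPM in the vector EtOH libraries and 102.1, 120.7 and 102.8 with Dox. In JUN cells KIF20A was at 111.4, 108.8 and 120.6 CPM with EtOH and 106.1, 92.5 and 86.0 with Dox. Both Dox groups lay below their EtOH groups. The log2 fold changes on induction were -0.21 in vector cells (SE 0.10, edgeR adjusted p = 0.125) and -0.26 in JUN cells (SE 0.10, edgeR adjusted p = 0.0804). A call was gained in vector cells without vector Dox replicate 2, at -0.30, and in JUN cells without JUN Dox replicate 1, at -0.35, or vector Dox replicate 1, at -0.26.

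**Figure D2:**
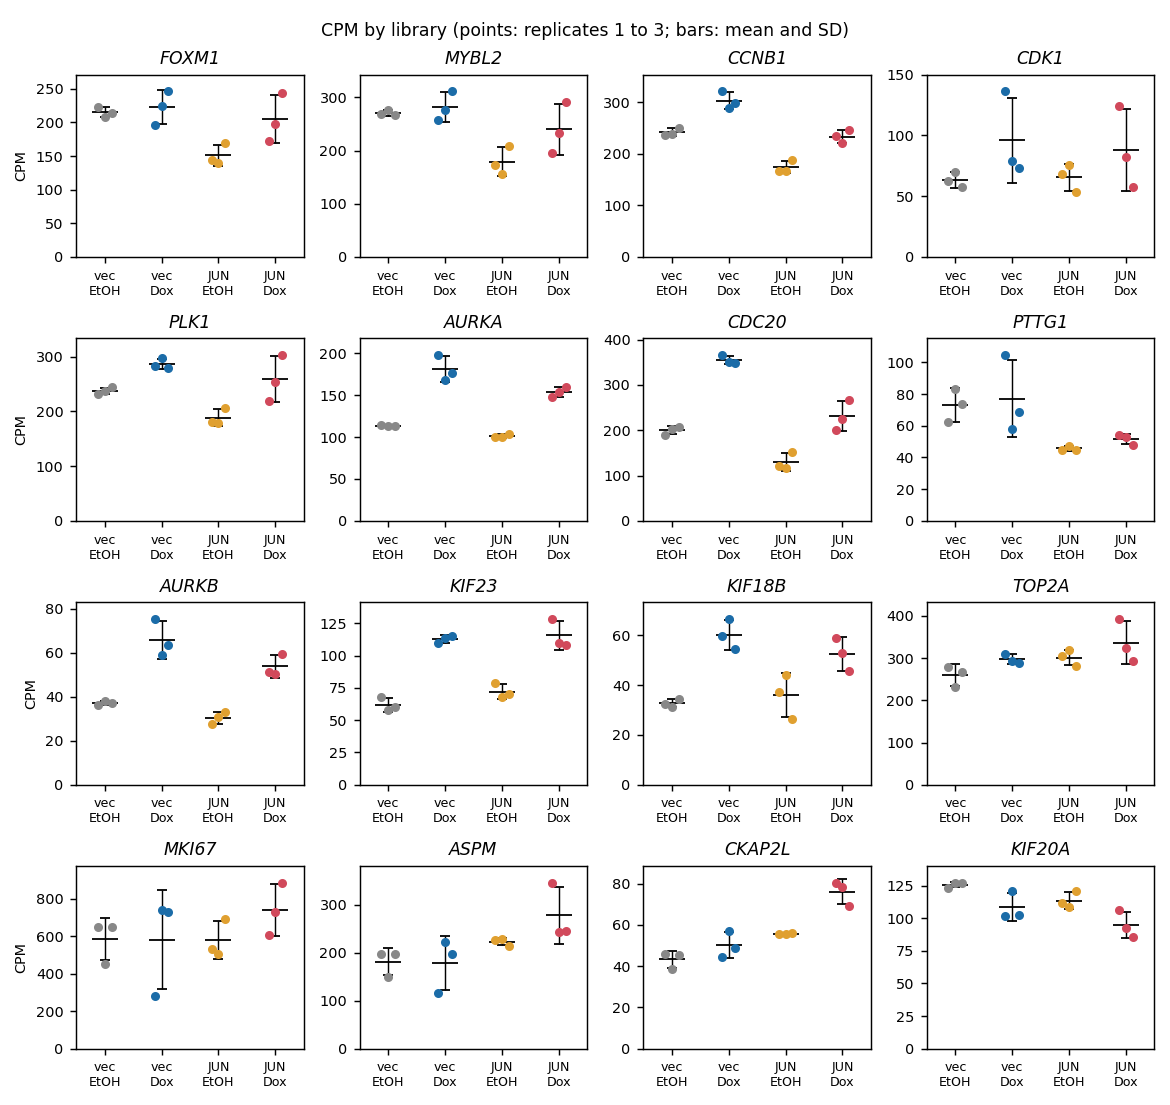
Level in CPM of selected members in each library of the 4 groups, with every library drawn as a point, the horizontal bar at the group mean and the error bar its SD (n = 3), on linear axes that start at 0. CDC20, KIF23 and AURKB rise in both Dox groups, PTTG1 is lower in both JUN groups, and MKI67 has 1 low library in vector Dox.

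None of the 7 spindle assembly genes rose on induction in vector cells, where 15.6% of all genes did. At an unadjusted p under 0.05 edgeR held 0 of them, and DESeq2 called 0. With so few genes this count is not read as a trait of the role. In JUN cells TPX2, SPAG5 and CKAP2L rose. CKAP2L (chr2:113493926-113522241), a spindle pole protein, was at 46.0, 38.7 and 45.2 CPM in the vector EtOH libraries and 44.7, 56.9 and 48.8 with Dox. In JUN cells CKAP2L was at 55.4, 55.5 and 55.9 CPM with EtOH and 80.4, 78.6 and 69.2 with Dox. The JUN Dox libraries were the highest without overlap, and the JUN EtOH libraries lay above vector EtOH. JUN raised CKAP2L by 0.36 (SE 0.11, edgeR adjusted p = 0.0171) without induction, or by 0.29 without vector EtOH replicate 2, where the call was lost. With induction the log2 fold change was 0.60 (SE 0.11, edgeR adjusted p = 0.000625), and induction in JUN cells raised it by 0.45 (SE 0.11, edgeR adjusted p = 0.0075). ASPM (chr1:197053251-197115824), which focuses spindle poles, was at 197.8, 149.6 and 198.2 CPM in the vector EtOH libraries and 116.1, 223.1 and 197.2 with Dox. In JUN cells ASPM was at 226.8, 227.9 and 214.2 CPM with EtOH and 346.1, 244.0 and 244.6 with Dox. Vector Dox replicate 1 was the lowest library and JUN Dox replicate 1 the highest. With JUN under induction ASPM was higher by 0.64 (SE 0.20, edgeR adjusted p = 0.0236), by 0.41 without vector Dox replicate 1 and by 0.46 without JUN Dox replicate 1, and neither of the latter was called.

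TPX2, which activates AURKA on the spindle, rose by 0.40 on induction in JUN cells (edgeR adjusted p = 0.0362), a call lost without vector EtOH replicate 1 or 3, JUN EtOH replicate 1 or 2, or JUN Dox replicate 2 or 3, at 0.29 to 0.40. SPAG5, astrin, fell by 0.33 with JUN without induction (edgeR adjusted p = 0.01) and rose by 0.30 on induction in JUN cells (edgeR adjusted p = 0.0299). The fall lost its call without JUN EtOH replicate 2, at -0.29, and the rise without JUN EtOH replicate 1 or 2 or JUN Dox replicate 3, at 0.31, 0.25 and 0.25. SPAG5 shares 130 exon bases with its antisense neighbor SPAG5-AS1, which held 1539.1 counts a library on average against 1797.3. Reads from that stretch could not be assigned to either gene. NUSAP1, HMMR and DLGAP5, which bundle or organize spindle microtubules, passed no test, with log2 fold changes of -0.01, 0.07 and -0.06 on induction in vector cells.

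Of the 4 cytokinesis genes, ANLN and PRC1 rose in both induction comparisons and none was called with JUN. ANLN, anillin, which scaffolds the contractile ring, rose by 0.57 on the log2 scale in each (edgeR adjusted p = 0.00231 and 0.00316). Its log2 fold change with JUN was 0.29 (SE 0.12, edgeR adjusted p = 0.0665) without induction, where the JUN EtOH libraries lay above the vector EtOH libraries, and 0.30 (SE 0.12, edgeR adjusted p = 0.0635) with it. PRC1, which bundles the central spindle, rose by 0.35 and 0.36, with the limit that its exons share 1892 bases with the antisense gene PRC1-AS1, which held nearly as many counts (3809.9 on average against 4376.6). RACGAP1, the partner of KIF23 in centralspindlin, rose by 0.37 in JUN cells (edgeR adjusted p = 0.00612) and had a log2 fold change of 0.22 in vector cells (edgeR adjusted p = 0.0613). ECT2, which activates RhoA for furrowing, had log2 fold changes of 0.38 and 0.37, neither called.

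Of the 6 genes of mitotic chromosomes, CDCA5 and NCAPH rose in both induction comparisons. CDCA5, sororin, which protects cohesion, rose by 0.56 and 0.49, and NCAPH, a condensin subunit, by 0.34 and 0.42. The former call for NCAPH was lost without vector EtOH replicate 2 or 3 or vector Dox replicate 3, at 0.28, 0.31 and 0.34. MKI67 (chr10:129894923-129924687), which encodes the proliferation marker Ki-67, was at 648.3, 453.8 and 648.4 CPM in the vector EtOH libraries and 278.7, 738.6 and 728.4 with Dox. In JUN cells MKI67 was at 533.5, 506.8 and 694.7 CPM with EtOH and 608.0, 730.6 and 885.5 with Dox. It varied more than any other member within vector Dox (coefficient of variation 45.1%), because 1 library lay far below the other two, and no comparison passed the test. TOP2A (chr17:38544777-38574148), the topoisomerase that untangles chromosomes, was at 279.9, 232.0 and 267.8 CPM in the vector EtOH libraries and 310.7, 292.0 and 289.2 with Dox. In JUN cells TOP2A was at 304.0, 317.9 and 281.1 CPM with EtOH and 392.6, 323.7 and 293.5 with Dox. Vector EtOH was the lowest group without overlap, yet the log2 fold changes of 0.19 on induction (SE 0.12, edgeR adjusted p = 0.239) and 0.21 with JUN (SE 0.12, edgeR adjusted p = 0.166) did not pass. NCAPG, another condensin subunit, and CDCA2, which recruits a phosphatase to chromosomes, also passed no test.

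**Figure D3:**
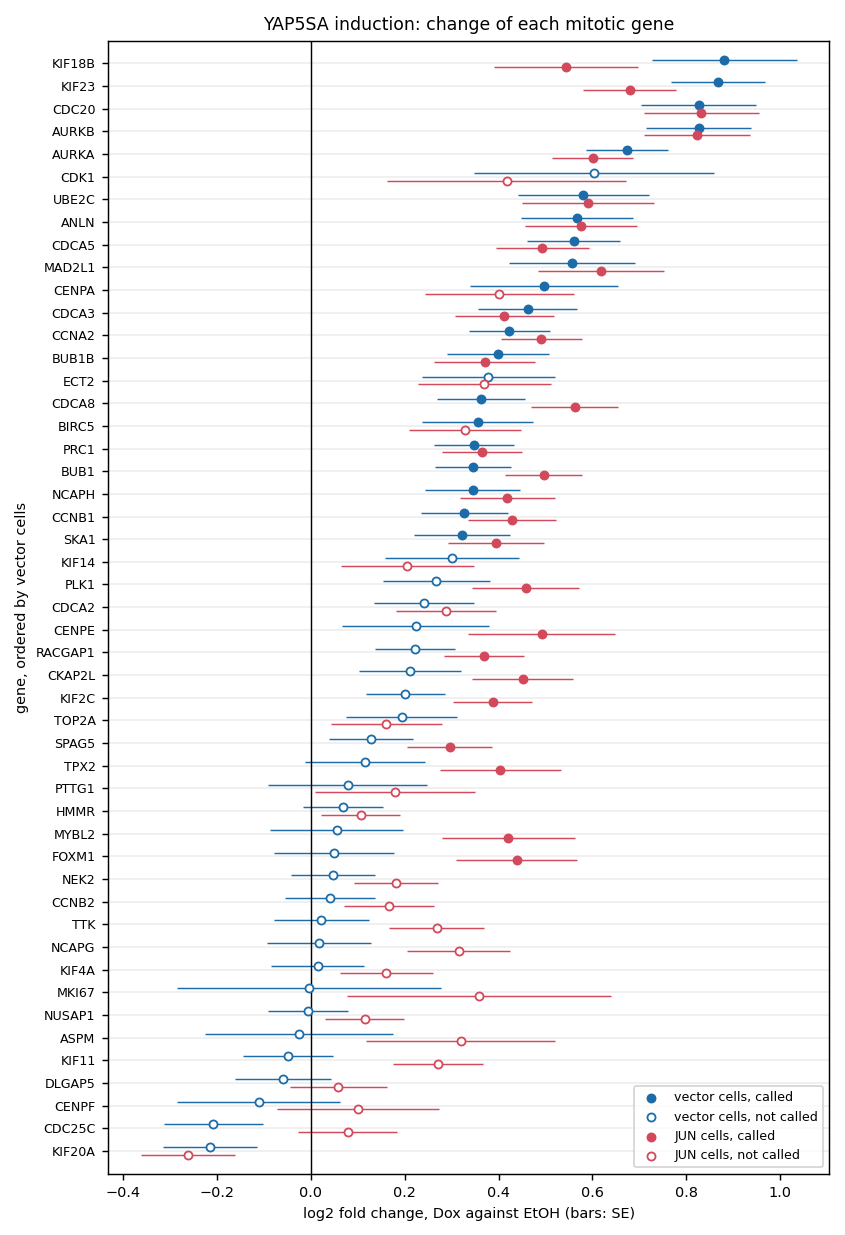
Log2 fold change of each member on YAP5SA induction, in vector cells (blue) and JUN cells (red), with error bars of 1 SE and filled points for members called by edgeR. Called members lie above 0 in both comparisons, 20 and 27 of 49.

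Of the members that rose on induction, 18 did so in both backgrounds, which was 90% of the 20 in vector cells and 66.7% of the 27 in JUN cells. The same share over all genes was not computed, so this overlap is not read as a trait of the members. BIRC5 and CENPA were called in vector cells alone, and 9 members in JUN cells alone, among them FOXM1, MYBL2, PLK1 and KIF2C. The interaction, which subtracts the log2 induction of vector cells from that of JUN cells, called 0 of the 49 members in edgeR and 0 in DESeq2, where 1.12% of all genes tested were called. At an unadjusted p under 0.05 it held 2 members, KIF11 at 0.32 (edgeR adjusted p = 0.461) and FOXM1 at 0.39 (SE 0.18, edgeR adjusted p = 0.546). A difference in induction between the backgrounds was therefore not shown for any member, including those called in 1 background alone. For CDC20 the interaction was 0.01 on the log2 scale with an SE of 0.17.

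**Figure D4:**
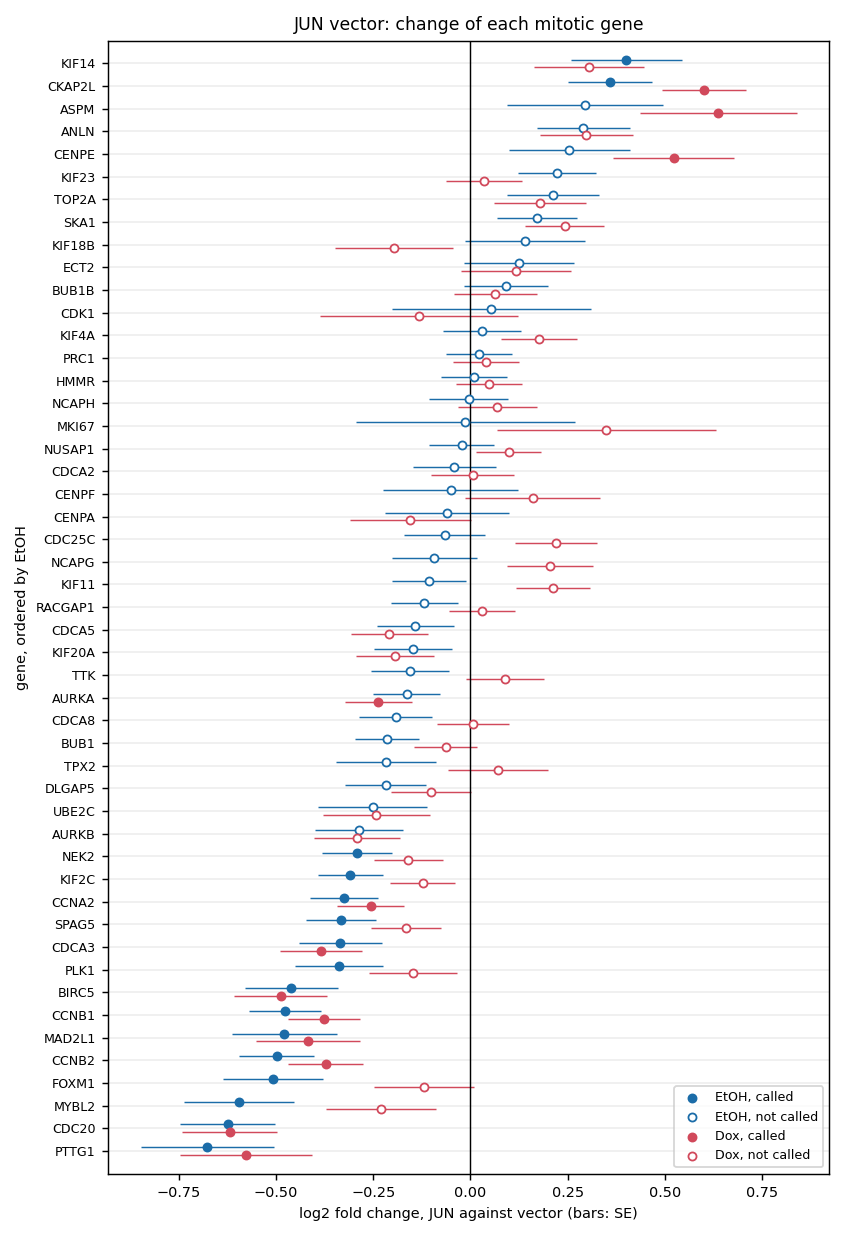
Log2 fold change of each member with JUN without and with YAP5SA induction, with error bars of 1 SE and filled points for members called by edgeR. Members below 0 include CDC20, PTTG1 and BIRC5 in both comparisons, and CKAP2L is above 0 in both.

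Of the members that fell with JUN, 8 did so without and with induction, which was 57.1% of the 14 and 88.9% of the 9. They were CCNA2, CCNB1, CCNB2, CDCA3, MAD2L1, CDC20, PTTG1 and BIRC5. The share of all genes that fell in both was not computed either. FOXM1, MYBL2, PLK1, NEK2, KIF2C and SPAG5 were called lower without induction alone and AURKA with induction alone, differences that the interaction did not call. CKAP2L was the member raised by JUN in both comparisons.

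The JUN effect on the members varied with exon length. The Spearman correlation of log2 fold change with exon length across the 49 members was 0.55 without and 0.60 with induction, against 0.22 and 0.23 across 14385 genes, and -0.15 and -0.08 for the induction comparisons. These points share the same libraries, and length goes together with base composition, for which the correlations of the JUN effects with exon GC content were -0.51 and -0.52. Among the 16 shortest members, of 1286 to 3605 exon bases, 7 fell and 0 rose without induction (median log2 fold change -0.27), whereas all genes of that length had a median of -0.15. Among the 16 longest, of 5218 to 12845 bases, 2 fell and 2 rose (median 0.07), beside a median of 0.08 over all genes of that length. With induction the short members had 6 lower (median -0.23) and the long ones 3 higher and 1 lower (median 0.17). The induction medians were 0.32 for short and 0.26 for long members in vector cells, and 0.41 and 0.37 in JUN cells. With the length trend of each library removed, JUN lowered 15 members without and 8 with induction, and raised 1 and 4. Of all 14775 genes, that fit called 3408 and 3137 lower and 2553 and 2332 higher, with medians of -0.06 and -0.05. With the GC trend removed, JUN lowered 21 and 14 members and raised 0 and 1, with medians of -0.25 and -0.11. Of all genes, 3523 and 3416 were then lower and 2617 and 2447 higher, with medians of -0.06 for both. In that fit the calls for KIF14, CENPE and ASPM and that for CKAP2L without induction were lost. CKAP2L under induction, CDC20 and BIRC5 kept their JUN calls under both. The part of exon length and base composition in the JUN calls was not tested beyond these fits.

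**Figure D5:**
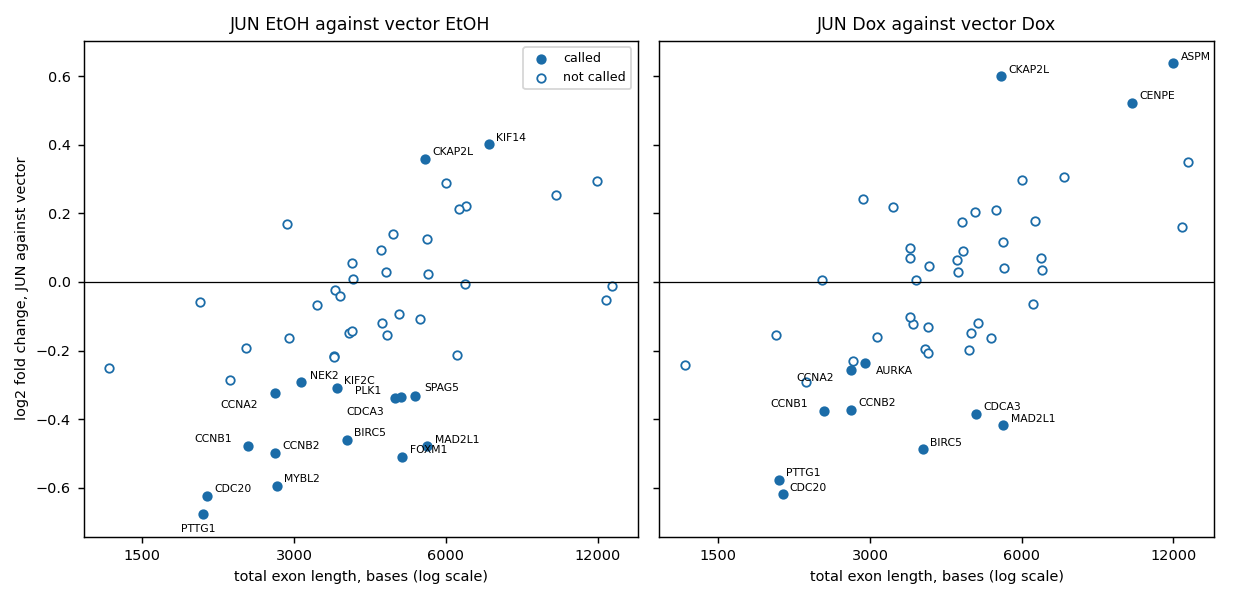
Log2 fold change with JUN against exon length on a log axis, without and with YAP5SA induction, with 1 point for each of the 49 members, filled where edgeR called it. PTTG1 and CDC20 lie below 0 and ASPM above 0, while MKI67 and CENPF lie near 0 without induction.

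A list of 66 other mitotic genes was measured in the same fit. Of all genes, induction raised 15.6% and lowered 14.4% in vector cells, and raised 11.2% and lowered 10.3% in JUN cells. Of the 66, 26 (39.4%) rose and 1 (1.5%) fell in vector cells, with a median log2 fold change of 0.24. In JUN cells 31 (47%) rose and 1 (1.5%) fell, with a median of 0.37. The gene that fell in both was CDC25B, which encodes a phosphatase that starts CDK1 activation in G2, by 1.40 on the log2 scale in vector cells (SE 0.11, edgeR adjusted p = 1.83e-07) and by 0.77 in JUN cells (SE 0.11, edgeR adjusted p = 0.000111). JUN lowered 17 (25.8%) and raised 0 without induction, where 18.9% of all genes fell and 20.1% rose. With induction it lowered 15 (22.7%) and raised 5 (7.6%), where 17.2% of all genes fell and 18.4% rose. UBE2S, which extends the ubiquitin chains that UBE2C starts, rose by 0.68 when vector cells were induced and fell with JUN by 0.70 and 0.77. CENPM, a centromere protein, fell with JUN by 0.83 and 0.77.

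Of 22 genes for MuvB, DREAM and E2F subunits, 10 (45.5%) rose and 2 (9.1%) fell on induction in vector cells. All genes had 15.6% and 14.4% there. In JUN cells 8 of the 22 (36.4%) rose and 1 (4.5%) fell, where all genes had 11.2% and 10.3%. MYBL1, the A-Myb paralog of MYBL2, rose by 1.31 in vector cells (SE 0.20, edgeR adjusted p = 0.000214) and by 1.13 in JUN cells (SE 0.20, edgeR adjusted p = 0.00112), and LIN52, a subunit of MuvB, by 0.72 and 0.76. RBL2, which encodes the pocket protein p130 of DREAM, fell by 0.51 in vector cells. With JUN, 2 of the 22 (9.1%) rose and 4 (18.2%) fell without induction, where 20.1% of all genes rose and 18.9% fell, and 4 (18.2%) rose and 5 (22.7%) fell with it, where all genes had 18.4% and 17.2%. E2F2, an activator E2F, fell with JUN by 0.94 and 0.96, whereas E2F7 rose by 0.54 and 0.61. RBL1 rose by 0.60 with JUN under induction.

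Of 40 replication and S-phase genes, 21 (52.5%) rose and 1 (2.5%) fell on induction in vector cells (median log2 fold change 0.31). All genes had 15.6% and 14.4% there. In JUN cells 26 (65%) rose (median 0.38), where 11.2% of all genes did. JUN lowered 21 (52.5%) and raised 0 without induction (median -0.37), where 18.9% of all genes fell. With induction it lowered 14 (35%) and raised 0 (median -0.23), where 17.2% of all genes fell. The summed level of the 40 genes was 4642 ± 42.6 CPM (SD, n = 3) in vector EtOH and 5187 ± 267 in vector Dox. The JUN groups had 3479 ± 206 CPM in EtOH and 4322 ± 232 in Dox. The mean of JUN Dox thus lay below that of vector EtOH for the S-phase list and above it for the 49 mitotic genes. CDC6, which loads the replicative helicase, rose by 1.05 and 0.79, and CDT1, its partner in loading, fell by 0.80 with JUN without induction.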

How the data were processed

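RNA-seq of MCF10A cells was analyzed in 12 libraries, 3 in each of 4 groups assigned from the sample titles. The table that the authors deposited gives raw read counts for each Entrez gene ID, without normalization. According to the study's methods, libraries of poly(A) RNA were made with the NEBNext Ultra RNA kit and sequenced single-end. Reads were trimmed with cutadapt and mapped to hg19 with Bowtie2, and counts were extracted with countOverlaps. The methods do not state whether strand was kept or used in counting. The submitters' processing notes name cutadapt 4.2 and Bowtie2 2.3.5.1, whereas the methods name another Bowtie2 version. The annotation used for counting is not given in the sources used here. Bowtie2 does not split reads over introns, so reads over exon junctions are largely lost. As strand handling is not stated, reads from exon bases shared by overlapping genes are taken here as impossible to assign.

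Symbols were found for 99.4% of the IDs in a RefSeq gene table. Gene positions and exon lengths are those of GENCODE v44lift37 on GRCh37 (exon GC content for 96.0% of the IDs), and promoter windows are RefSeq's on GRCh38.p14. CPM were computed with TMM-scaled library sizes. Genes were filtered with filterByExpr (minimum count 10, minimum total 15), which left 14775, and 1 robust quasi-likelihood model with group means was fitted to all 12 libraries with edgeR 4.0.16 under R 4.3.3. Its biological coefficient of variation was 12.5%. Benjamini-Hochberg adjustment ran over all tested genes, with calls made at an adjusted p under 0.05. SEs were derived from the F statistics. Tested on simulated data with vector Dox against vector EtOH over 14605 genes, the fit recovered 67.2% of genes changed by 0.585, 97% by 1 and 100% by 2 on the log2 scale.

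The members, the comparison lists and the tests were chosen with earlier results of these data known. All 49 members are named by role. Values of every library are given for FOXM1, MYBL2, CCNB1, CDK1, PLK1, AURKA, CDC20, TOP2A and MKI67 and for the 3 called members with the largest change in each comparison. From each other list, only the 2 highest and the 2 lowest called genes of a comparison could be named. Alternatives were DESeq2 1.42.0, RLE and upper-quartile factors, no filter, a minimum mean of 5 CPM, only the compared libraries, a replicate block, a term for each library's GC deviation, each library left out in turn and, added after the data were seen, offsets for each library's trend on exon length or on exon GC content.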

Additional observations from a re-analysis of the deposited data

How the results depend on the processing

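No called result changed sign under any alternative run. Members called higher on induction numbered 16 to 23 in vector cells and 19 to 32 in JUN cells when single libraries were left out (medians 0.196 to 0.294 and 0.333 to 0.402), and called lower 0 to 1 in each. In vector cells, 1806 of all genes were higher without vector EtOH replicate 1 (16 members) and 2398 without JUN Dox replicate 3 (23 members). In JUN cells, 1035 were higher without JUN EtOH replicate 2 (19 members) and 2024 without vector Dox replicate 1 (32 members). The median of the members in vector cells was 0.193 with upper-quartile factors. In JUN cells 1 member, KIF20A, was called lower with DESeq2, a minimum mean of 5 CPM, the GC deviation term, or that term with the replicate block. JUN without induction raised 5 members with the GC deviation term, 5 with that term and the block and 5 with only the compared libraries. Those fits called 3461 of 14775, 3375 of 14775 and 3714 of 14375 genes higher, against 2969 of 14775 in the main fit. It raised 1 member with the length offset and 0 with the GC offset, where 2553 and 2617 of all genes were higher. With a library left out JUN raised 0 to 3 members and lowered 10 to 17, with medians of -0.146 to -0.115. The count raised was 0 without vector EtOH replicate 2, and 1 without vector EtOH replicate 3 or JUN EtOH replicate 1 or 2. JUN with induction raised 6, 5 and 1 members with the GC deviation term, that term with the block and the GC offset. Those fits called 3186, 3135 and 2447 of all genes higher, against 2722 in the main fit. With a library left out JUN raised 1 to 5 members and lowered 6 to 10, with medians of -0.040 to 0.015. The count raised was 1 without JUN Dox replicate 1, and 5 without vector Dox replicate 2 or JUN Dox replicate 3. With only the compared libraries it lowered 2 members, and with the GC offset 14, where 1471 of 14323 and 3416 of 14775 genes were lower. The GC offset moved the medians of the JUN comparisons to -0.25 and -0.106. The cause of these shifts was not tested. Whichever library was left out, the interaction called 0 members, with medians of 0.076 to 0.136. Whether replicate numbers pair the libraries could not be decided from these values, and the main fit held no pairing. Same-numbered libraries had correlations of their deviations from the group means between -0.258 and 0.466. Libraries of other numbers and groups had -0.47 to 0.315, and 7 of 12 were closest to their own number. With the replicate block, induction raised 22 and 29 members and JUN lowered 14 and 8, and the interaction called 0. Of all 14775 genes, that fit called 2372 and 1696 higher on induction and 2848 and 2577 lower with JUN. In all fits 14 of the 20 rises in vector cells, 17 of the 27 in JUN cells, 9 of the 14 falls with JUN without induction and 2 of the 9 with it kept their call. A floor of 3 counts, 0.107 to 0.15 CPM, lay below every member's level.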
